A study of Mus musculus with 12 samples.

Results

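The genes of oxidative phosphorylation described here are the nuclear genes whose symbols begin with Ndufa, Ndufb, Ndufc, Ndufs, Ndufv, Sdh, Uqcr, Cox4 to Cox8 or Atp5, the subunits of complexes I to V of the mitochondrial inner membrane together with the complex II assembly factors Sdhaf1 to Sdhaf4. Pseudogenes and the complex I assembly factors were left out, and each gene was read from the probe set with the highest mean when it had more than 1. By this rule 83 genes were found among the 22180 genes with a probe set of their own. The chosen values did not enter the rule, apart from the brightest probe set of a gene.

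Liver RNA was hybridised to 12 Affymetrix Mouse Gene 2.0 ST arrays, 3 in each of 4 groups. The groups were Pparβ/δ-null mice fed a liquid diet with 4% (v/v) ethanol, Pparβ/δ-null mice fed the liquid control diet, wild-type mice fed the ethanol diet and wild-type mice fed the control diet. All mice were males on a C57BL/6 background, were 8 to 10 weeks old, took the control liquid diet to acclimate and were then kept on their diet for 16 weeks, with 10 mice per group in the feeding study. PPARβ/δ is a nuclear receptor that binds fatty acids and regulates genes of lipid and glucose use, and the null mice are labelled Pparβ/δ-/-. The labels do not say that each array held 1 separate mouse, so each p-value rests on how far these arrays scatter, which may be technical, and 3 arrays per group limit the precision.

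Oxidative phosphorylation couples the oxidation of NADH and succinate to the making of ATP. Complex I (NADH dehydrogenase) and complex II (succinate dehydrogenase) pass electrons to ubiquinone, complex III passes them to cytochrome c, and complex IV (cytochrome c oxidase) passes them to oxygen. Complexes I, III and IV pump protons, and complex V (ATP synthase) uses the proton gradient to make ATP. Hepatocytes are rich in mitochondria, and long ethanol feeding of rats is known for lower activity of the hepatic respiratory chain. Transcript levels, as here, are 1 step removed from protein and activity.

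Of the 83 genes, 78 lay above the intensity filter, a log2 intensity above the 40th percentile of the array on at least 3 arrays. That is 33 of 34 named for complex I, 4 of 4 for complex II, 4 of 4 complex II assembly factors, 7 of 7 for complex III, 14 of 17 for complex IV and 16 of 17 for complex V. The 5 dim genes were Ndufs5, Cox7b2, Cox8b, Cox8c and Atp5j2. Cox7b2 and Cox8c are testis forms, and Cox8b is the form of heart, skeletal muscle and brown fat, whereas Ndufs5 and Atp5j2 are ordinary subunits whose own probe sets were dim in every group. The classes follow the gene names, so Ndufa4, first named a complex I protein and now known as part of complex IV, was counted with complex I. A further 8 genes with such names had no probe set of their own, because their probe sets also name another gene.

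The tissue label was borne out by the 9 measured hepatocyte markers, all above the filter, with a median log2 intensity between 12.67 and 13.26 on the 12 arrays. Of 10 markers of skeletal muscle, heart and brown fat, 3 lay above the filter. Log2 intensity of Ppard, the disrupted gene, was 7.88, 7.93 and 8.06 in null ethanol livers, 7.69, 7.91 and 7.91 in null control livers, 7.96, 7.77 and 7.85 in wild-type ethanol livers, and 7.64, 8.01 and 7.68 in wild-type control livers. The genotypes overlapped, and since the labels do not say which stretch of the gene was disrupted, this probe set gave no check of the genotype. Wild-type control array 2 and null ethanol array 3 stood apart from the other arrays of their groups. Over all tested genes wild-type control array 2 correlated at r = 0.986 and 0.985 with arrays 1 and 3, which correlated at 0.991 with each other, and null ethanol array 3 correlated at 0.987 with each of arrays 1 and 2, which correlated at 0.993. For the 4 contrasts between pairs of groups, the counts over the 78 genes are given with and without the array concerned. Null control array 1 came near this pattern, at r = 0.9887 and 0.9867 with arrays 2 and 3, which correlated at 0.9915. It was left out only in the runs that left out each array in turn.

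The genes of oxidative phosphorylation were most often lowest in wild-type mice on the control diet. That group had the lowest mean of the 4 groups for 38 of the 78 genes (48.7%), against 28% of the 14031 genes tested. Null ethanol livers had the lowest mean for 22 of the 78 genes (28.2%, against 32.1% of all genes), null control livers for 10 and wild-type ethanol livers for 8 (10.3%, against 21.5%). Wild-type ethanol livers had the highest mean for 30 genes (38.5%, against 20.5% of all genes). Complex IV leaned furthest, with wild-type control livers lowest for 10 of 14 genes. Without the 2 arrays that stood apart, wild-type control livers were lowest for 42 of 78 genes (53.8%), against 30.2% of all genes.

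**Figure D1:**
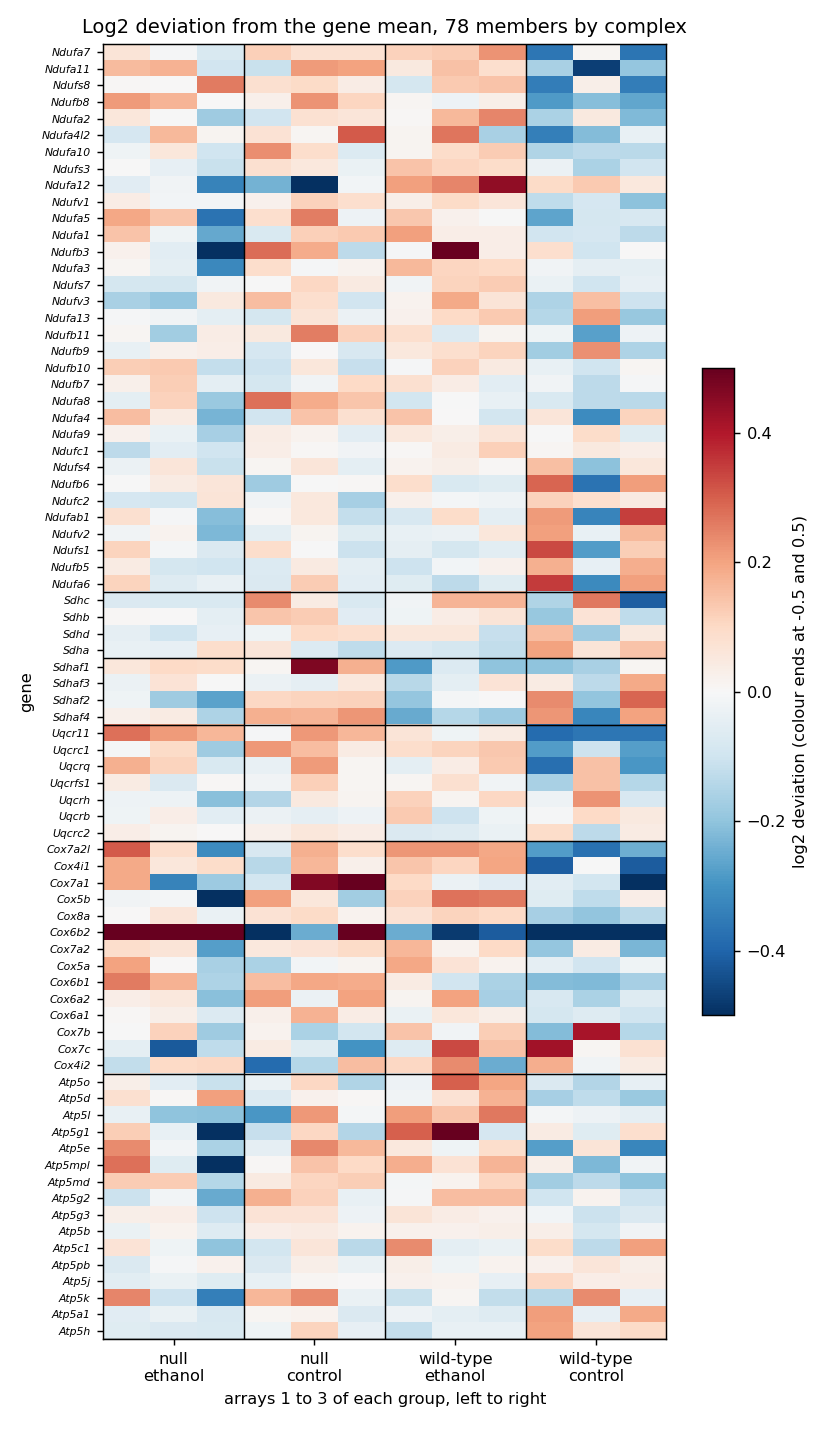
Log2 deviation of each of the 78 genes (rows, by complex, horizontal lines between classes) from its own mean over the 12 arrays (columns, 3 per group), with colour ending at -0.5 and 0.5. The wild-type control columns hold most of the blue for complex IV and for the upper rows of complexes I and III, and null ethanol array 3 is blue in many rows of complexes I, IV and V.

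The median deviation of the 78 genes from their own means was taken on each array. It was 0.02, -0.01 and -0.10 on the null ethanol arrays, 0.01, 0.08 and 0.01 on the null control arrays, 0.02, 0.04 and 0.03 on the wild-type ethanol arrays, and -0.04, -0.09 and -0.04 on the wild-type control arrays. All wild-type ethanol arrays lay above all wild-type control arrays, while the null ethanol arrays spread widely and array 3 was the lowest of the 12. Complex IV had medians of 0.06, 0.06 and -0.16 on the null ethanol arrays, 0.02, 0.06 and 0.06 on the null control arrays, 0.10, 0.09 and 0.06 on the wild-type ethanol arrays, and -0.13, -0.10 and -0.14 on the wild-type control arrays.

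Cytosolic ribosomal protein genes and small nucleolar RNAs were also low on the wild-type control arrays. The median deviation of 59 cytosolic ribosomal protein genes was 0.04, 0.02 and -0.01 on the null ethanol arrays, -0.07, 0.12 and 0.06 on the null control arrays, 0.04, 0.06 and 0.03 on the wild-type ethanol arrays, and -0.12, -0.12 and -0.08 on the wild-type control arrays. That of 66 small nucleolar RNAs ranged between 0.08 and 0.60 on the 3 null ethanol arrays, 0.13 and 0.31 on the 3 null control arrays, 0.10 and 0.28 on the 3 wild-type ethanol arrays, and -0.88 and -0.20 on the 3 wild-type control arrays. Both lists were thus lowest on the wild-type control arrays, where the oxidative phosphorylation genes were also low. They did not follow these genes on every array. On null ethanol array 3 the oxidative phosphorylation genes had their lowest median (-0.10). There the ribosomal protein genes were at -0.01 and the small nucleolar RNAs at 0.08. The part of whatever moved these lists in the results below was not tested. In bulk liver RNA, fewer cells of a type and less RNA per cell cannot be told apart.

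**Figure D2:**
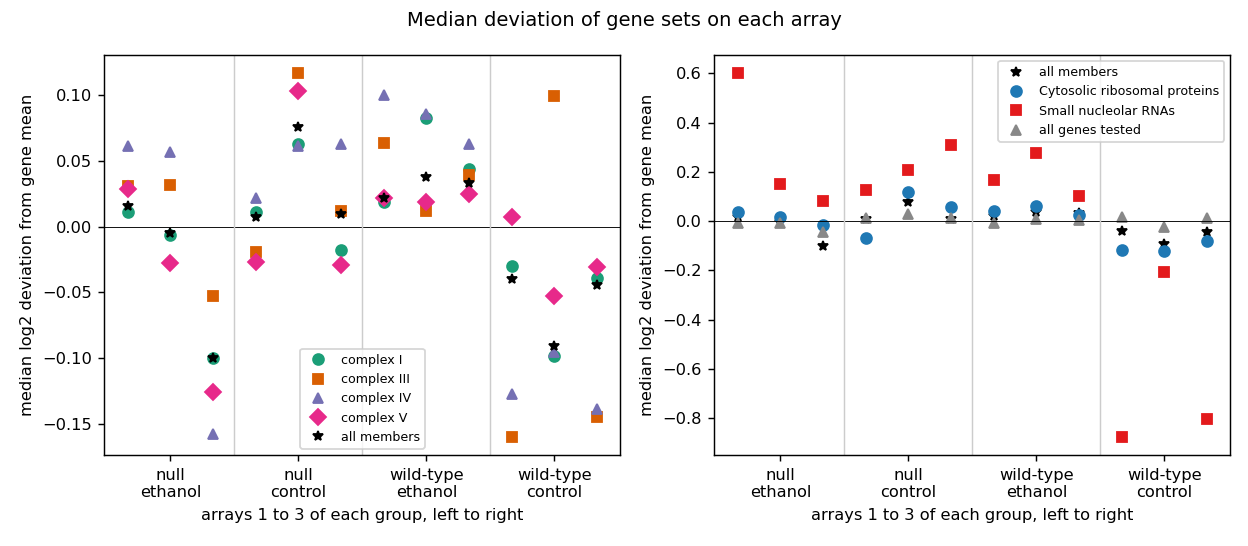
Median log2 deviation from the gene mean (vertical axis) on each of the 12 arrays (horizontal axis, 3 per group), for 4 complexes and all 78 genes on the left, and for all 78 genes, ribosomal protein genes, small nucleolar RNAs and all tested genes on the right. Complex IV lies between -0.14 and -0.10 on the wild-type control arrays and between 0.06 and 0.10 on the wild-type ethanol arrays, and the small nucleolar RNAs reach -0.88 on wild-type control array 1.

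The proximal promoters of these genes were searched for binding motifs of factors known to regulate respiratory chain genes in mammals, in the 250 bases before the RefSeq start (GRCm38.p6, both strands), with 69 of the 83 genes matched. The motif of NRF1 (nuclear respiratory factor 1), GCGCA and GCGC with any base N between them, was present for 11 of 69 genes (15.9%), against 5.84% of 17492 coding genes and 3.74% of all 32851 promoter windows. It occurred for 4 of 30 complex I genes, 2 of 3 complex II genes, 1 of 13 complex IV genes, 4 of 15 complex V genes, and 0 of 4 complex III genes. The ETS motif CCGGAAGT, bound by NRF2 (GABP), was present for 3 genes (4.35%, against 4.26% of coding genes and 2.88% of windows), namely Uqcr11, Uqcrh and Atp5h. The ERR motif TCAAGGTCA was present only for Atp5g3 (1.45%, against 0.36% of coding genes and 0.387% of windows). The direct repeat of AGGTCA with 1 spacer base N, which PPAR and RXR dimers bind, was found for 0 of 69 genes (0.0515% of coding genes and 0.0335% of windows). The ERR motif and the repeat share the letters AGGTCA, and a match describes these letters only. The 100 bases before the start are given for Uqcr11, the member with the smallest p between genotypes on the control diet. They are also given for 4 of the genes with the NRF1 motif that the results name, with the motif in capitals. Other named genes with that motif, such as Sdhd, Atp5h and Cox6a1, are not printed.
Uqcr11, chr10:80406822-80406921, minus strand: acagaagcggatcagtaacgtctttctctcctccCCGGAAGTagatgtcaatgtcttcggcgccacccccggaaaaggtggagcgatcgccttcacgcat
Ndufa8, chr2:36049339-36049438, minus strand: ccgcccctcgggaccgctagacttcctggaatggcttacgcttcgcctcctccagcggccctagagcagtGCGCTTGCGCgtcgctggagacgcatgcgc
Ndufa11, chr17:56717662-56717761, plus strand: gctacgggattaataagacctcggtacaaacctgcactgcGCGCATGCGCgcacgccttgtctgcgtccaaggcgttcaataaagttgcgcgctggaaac
Sdha, chr13:74350241-74350340, minus strand: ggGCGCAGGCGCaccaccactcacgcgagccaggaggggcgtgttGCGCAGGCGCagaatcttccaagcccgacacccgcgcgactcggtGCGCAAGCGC
Atp5g2, chr15:102671048-102671147, minus strand: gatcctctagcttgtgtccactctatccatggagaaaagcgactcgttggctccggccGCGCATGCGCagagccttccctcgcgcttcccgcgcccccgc
Counted from the start, the capitals begin at base -66 for Uqcr11, -30 for Ndufa8, -60 for Ndufa11 and -42 for Atp5g2, and Sdha carries the NRF1 motif 3 times, from bases -98, -55 and -10. Of the 10 tested genes with the NRF1 motif 5 had a positive and 5 a negative ethanol difference in wild-type livers (median 0.03), against 42 positive and 13 negative (median 0.13) among the 55 other matched genes.

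The first comparison was between the ethanol and control diets in wild-type mice, where the differences were small and mostly positive. The ethanol difference was positive for 55 of 78 genes, with a median of 0.12 on the log2 scale, against -0.01 for all genes (48.7% positive). The ethanol arrays all lay above the control arrays for 27 genes (34.6%, against 10.8% of all genes). They lay all below for 4 genes (5.13%, against 8.61%). This lean was not particular to these genes. Of 59 cytosolic ribosomal protein genes 47 were positive and 12 negative (median 0.14), with 24 all above and 1 all below. Of 66 small nucleolar RNAs 59 were positive and 7 negative (median 0.87), with 48 all above and 0 all below. No gene of the 78 passed limma's test with Benjamini-Hochberg adjustment at 0.05 in this comparison, where 0.0927% of all tested genes (13 of 14031) did. By unadjusted p under 0.05, 16 were higher and 2 lower (20.5% and 2.56%, against 7.75% and 6.75% of all genes). Without wild-type control array 2 the positive count was 54, the ethanol arrays lay above for 42 genes (53.8%, against 19.1% of all genes) and below for 15 (19.2%, against 22.7%), and 6 of the 78 genes passed the test (7.69%, against 5.8% of all genes), 5 of them higher with ethanol.

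The median ethanol difference in wild-type livers was 0.18 for complex IV (12 of 14 positive), 0.13 for complex V (10 of 16) and 0.13 for complex I (26 of 33). It was 0.08 for complex III (5 of 7), 0.05 for complex II (2 of 4) and -0.12 for the complex II assembly factors (0 of 4). The range over the 78 genes was -0.23 to 0.51, with a median standard error of 0.10. For most single genes the difference was thus of the size of its error.

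**Figure D3:**
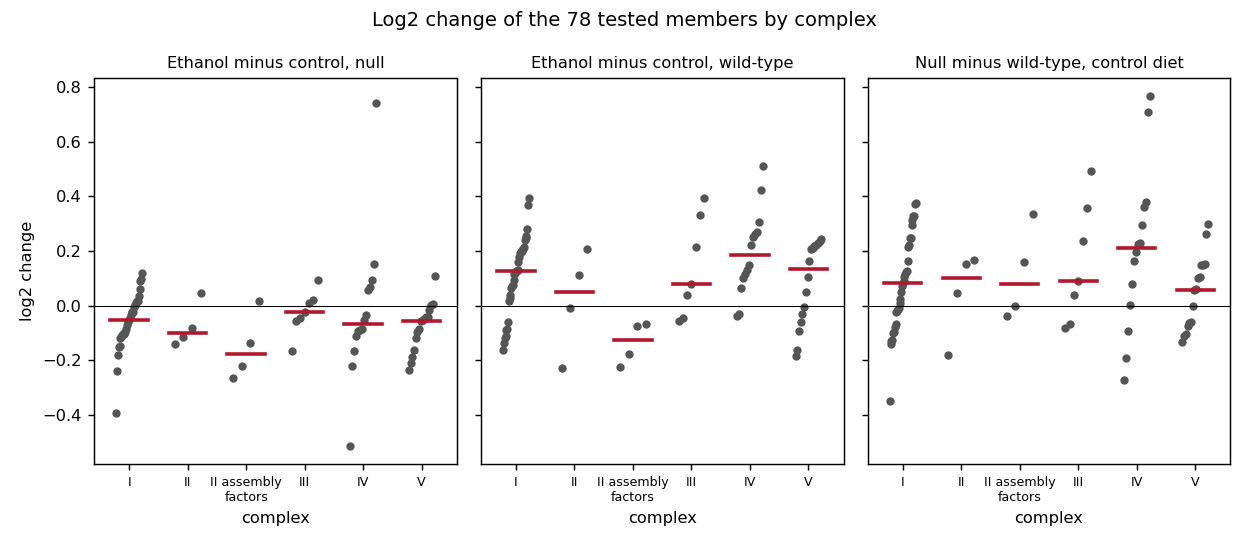
Log2 change (vertical axis) of each of the 78 genes (points) by complex (horizontal axis), with the red line at the median of the class, for ethanol minus control in null mice, ethanol minus control in wild-type mice, and null minus wild-type mice on the control diet. The class medians for ethanol lie between -0.18 and -0.02 in null mice and between -0.12 and 0.18 in wild-type mice.

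Among complex III genes, Uqcr11 had the smallest p of all 78 genes for ethanol in wild-type mice. Uqcr11, a small accessory subunit of the cytochrome bc1 complex encoded on chromosome 10, measured 10.06, 10.00 and 9.95 in null ethanol livers, 9.78, 10.00 and 9.95 in null control livers, 9.85, 9.76 and 9.83 in wild-type ethanol livers, and 9.40, 9.42 and 9.42 in wild-type control livers. The wild-type control arrays lay close together and below every other array. With ethanol the difference was 0.40 ± 0.08 (SE) in wild-type livers (adjusted p = 0.08525) and 0.09 ± 0.08 in null livers (adjusted p = 0.66). In wild-type livers Uqcr11 passed limma's adjusted test without wild-type control array 2, and also with array weights.

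Uqcrc1 is a core subunit of complex III on chromosome 9. It measured 11.80, 11.90 and 11.63 in null ethanol livers, 12.02, 11.96 and 11.85 in null control livers, 11.89, 11.92 and 11.94 in wild-type ethanol livers, and 11.53, 11.70 and 11.53 in wild-type control livers. The ethanol arrays lay above the control arrays in wild-type mice (0.33 ± 0.09, adjusted p = 0.1549), while the 2 diets overlapped in null mice (-0.17 ± 0.09, adjusted p = 0.4781). Like Uqcr11, Uqcrc1 passed limma's adjusted test in wild-type mice without wild-type control array 2, and also with array weights. The third complex III gene by p, Uqcrq, a small accessory subunit, differed by 0.21 ± 0.13 with overlapping groups in wild-type mice (adjusted p = 0.4753). The other core subunit, Uqcrc2, averaged 11.92 ± 0.02 in null ethanol, 11.95 ± 0.02 in null control, 11.85 ± 0.02 in wild-type ethanol and 11.91 ± 0.12 in wild-type control livers (SD, n = 3 each), so the pair of core subunits did not share the pattern of Uqcrc1.

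Complex IV held the gene with the largest ethanol difference in wild-type livers. Cox7a2l, a factor that joins complexes III and IV into supercomplexes and is known in C57BL/6 mice as a shortened protein, measured 8.34, 8.11 and 7.71 in null ethanol livers, 7.95, 8.20 and 8.12 in null control livers, 8.25, 8.25 and 8.22 in wild-type ethanol livers, and 7.75, 7.65 and 7.78 in wild-type control livers. The difference was 0.51 ± 0.13 in wild-type mice, with no overlap (adjusted p = 0.1292), and -0.03 ± 0.13 in null mice (adjusted p = 0.9339), where null ethanol array 3 lay with the wild-type control arrays. Without that array the null difference of Cox7a2l was 0.14 (adjusted p = 0.712), so its sign was not settled. Cox4i1, the regulatory subunit that binds ATP, measured 11.58, 11.44 and 11.48 in null ethanol livers, 11.25, 11.55 and 11.41 in null control livers, 11.52, 11.49 and 11.58 in wild-type ethanol livers, and 10.97, 11.38 and 10.97 in wild-type control livers. Its wild-type difference was 0.42 ± 0.12 (adjusted p = 0.1515) and, with wild-type control array 2 left out, 0.56 (adjusted p = 0.0132). Cox8a, the ubiquitous form of a small subunit, measured 12.68, 12.72 and 12.70 in wild-type ethanol livers, against 12.44, 12.41 and 12.47 in wild-type control livers, a difference of 0.26 ± 0.07 (adjusted p = 0.1549).

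In complex I the smallest p for ethanol in wild-type mice belonged to Ndufa7, Ndufa11 and Ndufb8, accessory subunits that do not carry redox centres. Ndufa7 measured 9.21, 9.14 and 9.07 in null ethanol livers, 9.27, 9.23 and 9.23 in null control livers, 9.27, 9.28 and 9.37 in wild-type ethanol livers, and 8.79, 9.16 and 8.79 in wild-type control livers. Ethanol arrays lay above control arrays in wild-type mice (0.39 ± 0.10, adjusted p = 0.1305, or 0.52 and adjusted p = 0.00872 without wild-type control array 2) and below them in null mice (-0.10 ± 0.10, adjusted p = 0.7199). For Ndufa11 the wild-type difference was 0.37 ± 0.12 (adjusted p = 0.1912) and for Ndufb8 it was 0.26 ± 0.09 (adjusted p = 0.2084), both with no overlap. The second, dimmer probe set of Ndufa11 did overlap (6.895, 7.156 and 6.864 in wild-type ethanol, against 6.496, 6.371 and 6.913 in wild-type control livers). Ndufs1, the largest core subunit and the carrier of several iron-sulfur clusters, differed by -0.12 ± 0.13 (adjusted p = 0.7183).

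Complex II ran the other way for its catalytic subunit. Sdha, the flavoprotein that oxidises succinate, measured 12.33, 12.32 and 12.45 in null ethanol livers, 12.43, 12.30 and 12.24 in null control livers, 12.30, 12.28 and 12.24 in wild-type ethanol livers, and 12.57, 12.43 and 12.51 in wild-type control livers. In wild-type mice all ethanol arrays lay below all control arrays (-0.23 ± 0.08, adjusted p = 0.2471), and in null mice the diets overlapped (0.05 ± 0.08, adjusted p = 0.8346). The iron-sulfur subunit Sdhb differed by 0.11 ± 0.09 and the membrane anchors Sdhc and Sdhd by 0.21 ± 0.14 and -0.01 ± 0.10 in wild-type mice, none with an adjusted p under 0.5314.

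In complex V the 3 genes with the smallest p were Atp5d (the delta subunit of the central stalk), Atp5o (the oligomycin sensitivity-conferring protein) and Atp5md (a small membrane subunit). Their differences were 0.24 ± 0.09, 0.24 ± 0.10 and 0.21 ± 0.09, with adjusted p of 0.2422, 0.297 and 0.3161. The second probe set of Atp5d was nearly as bright, and its wild-type diets overlapped. It measured 11.30, 11.32 and 11.39 with ethanol, against 11.27, 11.07 and 11.31 on the control diet. In null mice it was lower with ethanol (11.28, 11.31 and 11.29, against 11.37, 11.40 and 11.34). The first probe set averaged higher there (11.45 against 11.34), so the probe sets of Atp5d disagreed. Atp5h, a subunit of the peripheral stalk, measured 11.64, 11.72 and 11.72 in wild-type ethanol livers, against 11.96, 11.82 and 11.85 in wild-type control livers (-0.18 ± 0.08, adjusted p = 0.3161). Members of the same complex thus lay on either side of 0. The second probe set of Atp5h was far dimmer and did overlap. It measured 5.483, 5.476 and 6.173 in wild-type ethanol livers, against 5.991, 5.911 and 5.569 in wild-type control livers. Atp5b, the catalytic beta subunit, averaged 13.32 ± 0.04 in null ethanol, 13.38 ± 0.01 in null control, 13.37 ± 0.01 in wild-type ethanol and 13.32 ± 0.06 in wild-type control livers.

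In null mice ethanol was accompanied by small negative differences. The median was -0.06 with 23 positive and 55 negative, close to that of all tested genes, which was -0.05 with 38.1% positive. None of the 78 passed limma's adjusted test, where 0.00713% of all genes did, and by unadjusted p under 0.05 there was 1 higher and 3 lower (against 3.81% and 8.37% of all genes). No gene had all ethanol arrays above all control arrays (5.59% of all genes did), and 9 genes (11.5%, against 13% of all genes) had them all below. Without null ethanol array 3 the split was 37 positive and 41 negative, with a median of -0.01, against -0.03 for all genes. There 3 genes lay all above (3.85%, against 10.6% of all genes) and 11 all below (14.1%, against 18.9%). The lean to lower values was thus weaker without that array. After a second quantile normalization of all 12 arrays the split was 32 positive and 46 negative. The median was then -0.024, against -0.002 for all genes. By their medians the 78 genes thus lay above all genes without that array, and below them after the second normalization.

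The genes with the smallest p in null mice lay on both sides of 0, and none passed the adjusted test. Cox6b2, second by p and higher with ethanol (0.74 ± 0.31, adjusted p = 0.3808), is described with the genotype results. Ndufa8, a complex I subunit of the intermembrane space, measured 10.76, 10.92 and 10.62 in null ethanol livers and 11.08, 10.99 and 10.95 in null control livers, with no overlap (-0.24 ± 0.09, adjusted p = 0.3499). The second, dimmer probe set of Ndufa8 did overlap (8.725, 8.657 and 8.676 in null ethanol, against 8.67, 8.791 and 8.81 in null control livers). Cox7a1, the heart and muscle form of its subunit, measured 7.11, 6.59 and 6.74 in null ethanol livers, against 6.83, 7.39 and 7.77 in null control livers, with overlap (-0.51 ± 0.23, adjusted p = 0.3952). The difference was -0.21 ± 0.10 for Atp5g2, which encodes the c subunit of the ATP synthase ring (adjusted p = 0.3991), and -0.39 ± 0.20 for the complex I subunit Ndufb3 (adjusted p = 0.4475). Without null ethanol array 3 the difference of Ndufb3 was -0.13 (adjusted p = 0.8333).

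**Figure D4:**
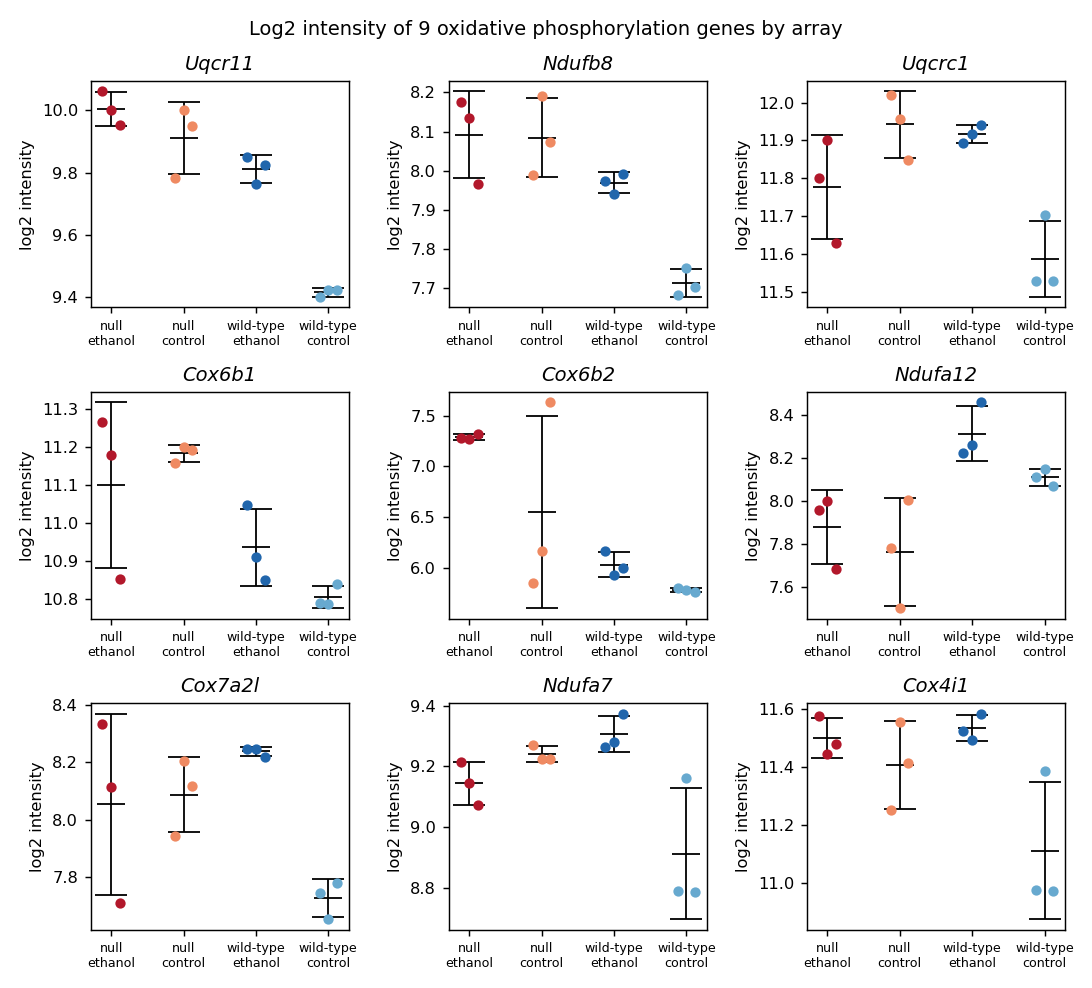
Log2 intensity (vertical axis, each gene on its own scale) of 9 genes on the 12 arrays (points), with the group mean and SD as bars, for null ethanol, null control, wild-type ethanol and wild-type control livers. The 3 wild-type control arrays are the lowest for Uqcr11 and Ndufb8, the null arrays are lowest for Ndufa12, and the 3 null ethanol arrays and null control array 3 stand high for Cox6b2.

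The ethanol difference was next compared between genotypes through the interaction, the null difference minus the wild-type difference. It was negative for 58 of 78 genes, with a median of -0.14, against -0.04 for all genes. The interaction contains the wild-type difference, and with it the wild-type control arrays, so the values of these contrasts are not independent. After a second quantile normalization the median was -0.08 with 52 of 78 negative, against 0.02 for all genes. The class medians were -0.25 for complex IV, -0.24 for complex I, -0.15 for complex II, -0.14 for complex V, -0.12 for complex III and -0.03 for the complex II assembly factors. None of the 78 genes passed limma's adjusted test (0.0143% of all genes did), while by unadjusted p under 0.05 there were 15 lower and 1 higher (19.2% and 1.28%, against 10.3% and 4.78% of all genes). The smallest adjusted p values were those of Uqcrc1 (-0.50 ± 0.13, adjusted p = 0.191) and Ndufa7 (-0.49 ± 0.15, adjusted p = 0.2058). Those of Cox7a2l (-0.55 ± 0.19), Cox8a (-0.31 ± 0.10), Atp5g2 (-0.38 ± 0.13), Ndufs3 (-0.29 ± 0.11) and, in the positive direction, Sdha (0.28 ± 0.12) lay between 0.2322 and 0.2924. A difference between genotypes in the ethanol response was therefore not established for any single gene.

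The genotypes were then compared on the control diet, a contrast that shares the wild-type control arrays with the ethanol contrast in wild-type mice, so that the values of the 2 contrasts are not independent. Here 3 of 78 genes passed limma's adjusted test, all higher in null livers (3.85%, against 3.21% of all genes higher and 5.1% in either direction), a share near that of all genes. The difference was positive for 52 of 78 genes (median 0.09, against 0.01 for all genes), and the null arrays all lay above the wild-type arrays for 24 genes (30.8%, against 14.6% of all genes) and all below for 4 (5.13%, against 10%). Without wild-type control array 2 the split was 49 positive and 29 negative, the null arrays lay above for 36 genes (46.2%, against 21.9% of all genes) and below for 14 (17.9%, against 21.5%), and 7 genes passed the test (8.97%, against 9.34% of all genes). After a second quantile normalization the median was 0.06, against -0.01 for all genes.

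The 3 genes that rose were Uqcr11, Uqcrc1 and Ndufb8. Uqcr11, with the array values given above, was 0.49 ± 0.08 higher in null control than in wild-type control livers (adjusted p = 0.005477), and passed in each of 20 alternative settings. Uqcrc1 was 0.36 ± 0.09 higher (adjusted p = 0.04753) and passed in 8 of the 20, with an adjusted p of up to 0.142. Ndufb8 measured 8.18, 8.13 and 7.97 in null ethanol livers, 7.99, 8.19 and 8.07 in null control livers, 7.97, 7.94 and 7.99 in wild-type ethanol livers, and 7.68, 7.75 and 7.70 in wild-type control livers. The wild-type control arrays were again below all others, and the control-diet difference was 0.37 ± 0.09 (adjusted p = 0.02928), which passed in 14 of the 20 settings.

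Complex IV had the highest class median on the control diet, 0.21 with 11 of 14 positive, and 0 of 14 passed limma's adjusted test (6 were higher by unadjusted p under 0.05, where 13.1% of all genes were). The class medians were 0.10 for complex II, 0.09 for complex III, 0.08 for complex I, 0.08 for the complex II assembly factors and 0.06 for complex V. Cox6b1 came nearest in complex IV. Cox6b1, the ubiquitous form of the subunit that lies at the interface of the complex IV dimer, measured 11.27, 11.18 and 10.85 in null ethanol livers, 11.16, 11.20 and 11.19 in null control livers, 11.05, 10.91 and 10.85 in wild-type ethanol livers, and 10.79, 10.79 and 10.84 in wild-type control livers. The control-diet difference was 0.38 ± 0.11 with no overlap (adjusted p = 0.05572).

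On the ethanol diet the genotype difference was negative for most genes, with 18 positive and 60 negative (median -0.05, against -0.02 for all genes). None of the 78 passed limma's adjusted test, where 1.79% of all genes did, and 3 were higher and 8 lower by unadjusted p under 0.05 (3.85% and 10.3%, against 5.96% and 10.2% of all genes). The null arrays all lay below the wild-type arrays for 16 genes (20.5%, against 14.4% of all genes) and above for 5 (6.41%, against 9.74%). Without null ethanol array 3 the split was 30 positive and 48 negative, with 13 genes having the null arrays above (16.7%, as for all genes) and 18 below (23.1%, against 19.5%). A second quantile normalization of all 12 arrays also gave 30 positive and 48 negative (median -0.03, against 0.01 for all genes), and array weights gave 28 and 50 (median -0.04). Atp5l, the g subunit at the ATP synthase dimer interface, measured 8.80, 8.63 and 8.63 in null ethanol livers, against 9.04, 8.97 and 9.10 in wild-type ethanol livers (-0.35 ± 0.11, adjusted p = 0.149), with no overlap.

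Averaged over both diets, the genotype difference had a median of 0.00 with 39 positive and 39 negative. In that comparison 5 genes were higher and 1 lower in null livers (7.69% in all, against 7% of all genes, with 6.41% higher, against 3.01%, and 1.28% lower, against 3.98%). The 5 were Uqcr11 (0.34 ± 0.06, adjusted p = 0.003785), Cox6b2 (1.01 ± 0.22, adjusted p = 0.01568), Ndufb8 (0.25 ± 0.06, adjusted p = 0.02899), Sdhaf1 (0.30 ± 0.08, adjusted p = 0.0423) and Cox6b1 (0.27 ± 0.07, adjusted p = 0.04599). Sdhaf1, which helps load the iron-sulfur clusters of complex II, measured 8.92, 8.96 and 8.95 in null ethanol livers, 8.87, 9.33 and 9.04 in null control livers, 8.58, 8.79 and 8.66 in wild-type ethanol livers, and 8.66, 8.70 and 8.87 in wild-type control livers. Only null control array 1 fell within the wild-type range. On the second, dimmer probe set of Sdhaf1 the genotypes overlapped. It measured 6.048, 6.003 and 6.142 in null ethanol and 5.963, 6.332 and 5.96 in null control livers. In wild-type livers it measured 5.883, 5.743 and 5.865 with ethanol and 5.864, 6.013 and 5.824 on the control diet. The call of Sdhaf1 held in 7 of 20 settings and was lost with the mean of its probe sets. That of Cox6b1 held in 8 and that of Ndufb8 in 11.

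Cox6b2 differed in its pattern from the other genes. This form of the Cox6b subunit is known from testis, and it measured 7.28, 7.27 and 7.32 in null ethanol livers, 5.86, 6.17 and 7.63 in null control livers, 6.17, 5.93 and 6.00 in wild-type ethanol livers, and 5.80, 5.78 and 5.76 in wild-type control livers. The null ethanol arrays lay close together and above all wild-type arrays, while in null control livers array 3 was high and arrays 1 and 2 were at or near the wild-type range, so 1 array sets the spread of that group (SD 0.95). The genotype difference was 1.26 ± 0.31 on the ethanol diet (adjusted p = 0.06593) and 0.77 ± 0.31 on the control diet (adjusted p = 0.1744). Ethanol minus control in null livers was 0.74 ± 0.31 (adjusted p = 0.3808), or 1.28 with adjusted p = 0.00107 when null control array 3 was left out. The levels of Cox6b2 in wild-type livers, 5.76 to 6.17, lay just above the filter of 5.61 to 5.72.

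Ndufa12 was the gene that fell. Ndufa12, a complex I subunit of the matrix arm on chromosome 10, measured 7.96, 8.00 and 7.68 in null ethanol livers, 7.78, 7.50 and 8.00 in null control livers, 8.22, 8.26 and 8.46 in wild-type ethanol livers, and 8.11, 8.15 and 8.07 in wild-type control livers. All 6 null arrays lay below all 6 wild-type arrays (-0.39 ± 0.09, adjusted p = 0.02057), where 2.11% of all genes showed this. The second probe set of Ndufa12, dimmer than the first, measured between 6.47 and 6.61 in null ethanol, 6.35 and 6.61 in null control, 6.48 and 6.77 in wild-type ethanol, and 6.33 and 6.54 in wild-type control livers. These groups overlapped, and with the mean of the 2 probe sets the difference was -0.20 (adjusted p = 0.0739), so the probe sets of this gene disagreed.

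Tissue forms of the same subunit were set side by side, each against itself across groups. Cox4i2, the lung form of Cox4, differed by -0.04 ± 0.15 with ethanol in wild-type mice, where Cox4i1 differed by 0.42 ± 0.12. Cox6a2, the muscle form, differed by 0.12 ± 0.11 and the liver form Cox6a1 by 0.10 ± 0.08. Cox7a1 differed by 0.31 ± 0.23 and the liver form Cox7a2 by 0.22 ± 0.11. Ndufa4 differed by 0.06 ± 0.13 (-0.07 without wild-type control array 2) and its relative Ndufa4l2, induced by low oxygen, by 0.24 ± 0.13. Each of these had an adjusted p above 0.05 in all 6 contrasts. Cox8b was too dim to be tested, at 5.49 to 5.54 in null ethanol, 5.14 to 5.33 in null control, 5.36 to 5.43 in wild-type ethanol and 5.25 to 5.30 in wild-type control livers.

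Genes outside the 78 gave the wider picture of the pathway. All 10 measured transcripts of mitochondrially encoded subunits had a positive ethanol difference in wild-type mice, with a median of 0.05. None passed limma's adjusted test (1 had an unadjusted p under 0.05), and the diets overlapped for all 10. Their median deviation was 0.12, -0.03 and 0.02 on the wild-type ethanol arrays, with array 1 well above the others. On the wild-type control arrays it was -0.04, -0.01 and -0.02. The 2 transcripts with the smallest p were ND6 (0.42 ± 0.19, adjusted p = 0.3437) and COX1 (0.09 ± 0.08, adjusted p = 0.6198). Of 13 complex I assembly factors 6 were positive (median -0.06), and of 69 mitochondrial ribosomal proteins 44 were (median 0.06). Of 13 citric acid cycle enzymes 6 were positive (median -0.07), and of 15 regulators of mitochondrial biogenesis 7 were (median -0.01). None of these lists held a gene that passed limma's adjusted test in that comparison, where 0.0927% of all genes did. By unadjusted p under 0.05 the 13 assembly factors had 0 higher and 1 lower, the 69 ribosomal proteins 14 and 3, the 13 citric acid cycle enzymes 2 and 4, and the 15 regulators 2 and 3. Of all tested genes 7.75% were higher and 6.75% lower by that threshold.

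Between genotypes the assembly factors were read next. On the control diet 2 of 25 assembly factors of complexes III to V were higher and 2 lower in null livers by limma's adjusted test, where 3.21% of all genes were higher and 5.1% passed in either direction. Lyrm7, a complex III assembly factor that delivers the Rieske iron-sulfur protein, measured 5.22, 5.14 and 5.03 in null ethanol livers, 5.08, 4.96 and 4.94 in null control livers, 6.20, 6.56 and 6.11 in wild-type ethanol livers, and 6.26, 6.18 and 6.08 in wild-type control livers. The null arrays lay below all wild-type arrays on both diets (-1.18 ± 0.11, adjusted p = 8.941e-05 on the control diet, and -1.16 ± 0.11, adjusted p = 0.000115 on the ethanol diet). The null values lay below the filter, so its change is measured against values near the background of the arrays. Uqcrfs1, the Rieske protein itself, averaged 9.26 ± 0.06 in null ethanol, 9.30 ± 0.07 in null control, 9.29 ± 0.05 in wild-type ethanol and 9.21 ± 0.17 in wild-type control livers, within the spread of the arrays.

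The other called assembly factors were chosen for mention after their values were seen. Cox10, which makes the haem of complex IV, measured 8.09, 7.81 and 7.89 in null ethanol livers, 8.15, 8.25 and 8.13 in null control livers, 7.89, 8.01 and 7.86 in wild-type ethanol livers, and 7.59, 7.51 and 7.51 in wild-type control livers. The wild-type control arrays were below all others, and the control-diet difference was 0.64 ± 0.09 (adjusted p = 0.002138). Cox18, which inserts a core subunit into the membrane, was 0.47 ± 0.10 higher (adjusted p = 0.02161), and Coa5, another complex IV assembly factor, fell (-0.41 ± 0.11, adjusted p = 0.04526). Among 13 electron carriers and enzymes of coenzyme Q synthesis 3 were higher, and among 15 regulators of mitochondrial biogenesis 2 were higher, in null livers on that diet, beside 3.21% of all genes.

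Marker lists of other liver cells were set beside the genotype results. All 12 macrophage and Kupffer cell markers were above the filter, and their difference was negative for 12 of 12 in null livers on either diet (medians -0.47 on the ethanol diet and -0.60 on the control diet). Averaged over the diets 11 of 12 passed limma's adjusted test as lower, beside 3.98% of all genes. Their median deviation ranged between -0.39 and 0.16 on the null ethanol arrays, -0.69 and -0.24 on the null control arrays, 0.27 and 0.57 on the wild-type ethanol arrays, and -0.04 and 0.37 on the wild-type control arrays. The 10 sinusoidal endothelial markers above the filter were negative for 10 of 10 in null livers on the ethanol diet (median -0.33) and for 8 of 10 on the control diet (median -0.26). Averaged over the diets 2 of these 10 passed as lower, beside the same 3.98% of all genes. Their median deviation was -0.39, -0.51 and 0.30 on the null ethanol arrays, and ranged between -0.15 and -0.01 on the null control arrays, -0.03 and 0.21 on the wild-type ethanol arrays, and 0.04 and 0.25 on the wild-type control arrays. Null ethanol array 3, where the 78 genes were lowest, thus had the highest level of these markers. Not every list was lower in null livers. Of 10 stellate cell markers 7 were higher in null livers on the control diet (median 0.18) and 3 on the ethanol diet (median -0.15). Of 6 lymphocyte markers above the filter 2 were higher on the control diet (median -0.20) and 1 on the ethanol diet (median -0.13). The 9 hepatocyte markers had medians between -0.08 and 0.03 on the null ethanol arrays, 0.02 and 0.04 on the null control arrays, 0.02 and 0.06 on the wild-type ethanol arrays, and -0.07 and 0.00 on the wild-type control arrays. The part of these cell types in the results was not tested.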

How the data were processed

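Liver RNA on 12 arrays was measured as linear intensity per probe set, which the authors deposited after RMA, per the submitters' processing notes; values ran between 1.816 and 20156. Log2 was taken of the deposited intensity, with no further normalization. A gene was read from its brightest probe set among those with 1 gene in GEO's platform annotation; 23521 probe sets name 1 gene, 1814 several and 16010 none. Genes above the array's 40th percentile on at least 3 arrays were tested, 14031 in all. One limma model (3.58.1, R 4.3.3) with the 4 groups gave 6 contrasts, and p-values were adjusted by Benjamini-Hochberg over all tested genes, with 0.05 as the threshold. The contrasts were ethanol in each genotype, genotype on each diet and averaged over diets, and the interaction. The model was tested on simulated data. Promoter windows came from RefSeq (GRCm38.p6). Most genes were named by 1 rule: each called oxidative phosphorylation gene, the smallest p per complex and contrast, tissue forms of a subunit, and up to 2 genes of each other list. Uqcrc2, Uqcrfs1, Ndufs1, Ndufs7, Atp5h and Atp5b were described outside that rule. Assembly factors called between genotypes were also mentioned after their values were seen. The members and lists were chosen with earlier results of these data known. Protein sequences were not used here. Alternatives were another normalization, filters, trend and weights, probe set averages, a replicate block and leaving arrays out.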

Additional observations from a re-analysis of the deposited data

Results flagged for a closer look

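In 2 complex I genes the ethanol arrays all lay above the control arrays in wild-type mice and all below them in null mice (2.56% of the 78, against 1.58% of all tested genes). Ndufa7 had an ethanol difference of -0.10 ± 0.10 in null and 0.39 ± 0.10 in wild-type livers, and the null difference minus the wild-type difference was -0.491 (limma's interaction, adjusted p = 0.2058). Ndufs7, a core subunit that carries an iron-sulfur cluster, measured 12.28, 12.28 and 12.35 in null ethanol livers and 12.37, 12.47 and 12.42 in null control livers. Its values were 12.35, 12.48 and 12.50 in wild-type ethanol livers and 12.34, 12.27 and 12.33 in wild-type control livers. The difference between genotypes was -0.244 (adjusted p = 0.3268). Neither interaction passed the adjusted threshold.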

How the results depend on the processing

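The number of called genes moved with the setting. Over the 49 gene and contrast pairs chosen by the rule for named genes, 906 alternative values kept their direction and call, 56 lost the call, 18 gained it and 0 reversed; the cause was not tested. Among all 78 genes the sign changed under at least 1 alternative for 16 genes in the ethanol contrast of wild-type mice and 38 in that of null mice. Those contrasts had 0 called genes. In the genotype contrast on the control diet it changed for 22 genes, and for 0 of the 3 called. Averaged over diets it also changed for 22 genes, and for 0 of the 6 called. For ethanol in wild-type mice the called count was 7 with array weights (8.97%, against 5.93% of all genes) and 11 (8 higher, 3 lower, 14.1%, against 7.89%) without wild-type control array 2 and null ethanol array 3, a setting added after the data were seen, against 0. For genotype on the control diet it was 1 with no filter (1.2%, against 1.77% of all genes), 5 with a 60th percentile filter (7.04%, against 9.46%), 6 with trend and robust fitting (7.69%, against 5.91%), 13 with array weights (16.7%, against 11.6%) and 12 without those 2 arrays (15.4%, against 11.8%), against 3. For genotype on the ethanol diet it was 1 with array weights (Cox6b2; 1.28%, against 5.91% of all genes), against 0. Averaged over diets it was 3 with no filter (3.61%, against 2.99% of all genes), against 6. The median difference for ethanol in null mice was -0.006 without the 2 arrays, against -0.055, and that of the interaction was -0.081 after a second quantile normalization, against -0.144. Leaving out 1 array at a time, the called counts were 0 to 6 for ethanol in wild-type mice (6 without wild-type control array 2), 0 to 1 for ethanol in null mice (Cox6b2 without null control array 3), 1 to 7 for genotype on the control diet (7 without wild-type control array 2, and 1 without wild-type control array 1 or 3 or null control array 2 or 3), 0 to 1 for genotype on the ethanol diet (Cox6b2 without null control array 1 or 3), 0 to 1 for the interaction (Ndufa7 without wild-type control array 2) and 2 to 5 averaged over diets (2 without wild-type ethanol array 3). The medians were 0.099 to 0.13 for ethanol in wild-type mice, -0.087 to -0.006 for ethanol in null mice (-0.006 without null ethanol array 3), 0.066 to 0.115 for genotype on the control diet, -0.077 to -0.027 on the ethanol diet, -0.207 to -0.126 for the interaction (-0.207 without wild-type control array 2) and -0.017 to 0.015 averaged over diets. Samples with the same number did not pair: 2 of 18 such pairs had r over 0.1, with r between -0.146 and 0.191. With the replicate block the called counts were 2 for genotype on the control diet and 5 averaged over diets, and 0 in the other 4 contrasts. With 3 arrays per group, and array signal near background for the dim genes, small differences cannot be resolved.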
